A study of Mus musculus with 13 samples.

Results

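The miR-15, miR-16 and miR-195 family was followed through small RNA sequencing of 2 mouse brain regions. Its members were taken by name, as every mature miRNA listed under the hairpins mmu-mir-15a, mmu-mir-15b, mmu-mir-16-1, mmu-mir-16-2 and mmu-mir-195a, and both arms of each hairpin were kept. The 5 hairpins gave 9 mature miRNAs among the 1384 listed in the 13 libraries. Reads of miR-16-5p were listed under both of its hairpins, where the second listing held 99.1% to 99.7% of the count of the first, so 1 row was kept for it and its source hairpin cannot be told apart.

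The study compared TgR mice, which overexpress the readthrough splice variant of human acetylcholinesterase (hAChE-R) from a minimal CMV promoter-enhancer, with mice of the parent strain FVB/N, labelled WT. Hippocampus was sequenced from 3 FVB/N and 3 TgR mice, and prefrontal cortex (PFC) from 3 FVB/N and 4 TgR mice, with 1 animal per library. The TgR animals were used irrespective of how strongly they showed stereotypic behaviour, and neither age nor sex of the sequenced animals is given in the sources used here. Whether a hippocampus and a PFC came from the same animal is not stated.

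A miRNA directs Argonaute to messenger RNAs that pair with its seed, bases 2 to 8 from the 5′ end. The family is known as a brake on the cell cycle, through cyclin and Cdk messages, and as a repressor of the survival gene Bcl2. The cluster of miR-15a and miR-16-1 lies in the region deleted in many chronic lymphocytic leukaemias. In neurons miR-16 has been described as a repressor of the serotonin transporter, and in blood it is abundant in red cells.

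The 5p arms define the family, since all of them carry 1 seed, which is in capitals here. The mature sequences were read from RefSeq with mouse build GRCm38.p6.
miR-16-5p: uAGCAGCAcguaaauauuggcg
miR-195a-5p: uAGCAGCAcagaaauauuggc
miR-15b-5p: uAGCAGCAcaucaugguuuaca
miR-15a-5p: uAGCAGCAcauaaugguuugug
Counted from the first base, with the shared start included, miR-16-5p and miR-195a-5p were the closest pair, with 19 of 21 positions identical. miR-15a-5p and miR-15b-5p shared 18 of 22 positions, and miR-15a-5p and miR-16-5p shared 16 of 22. Of 1679 mature miRNA names in the sequence table, 10 had the seed AGCAGCA.

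The 3p arms are shown because each is counted on its own below. The 5 sequences had 5 different seeds, again in capitals, and none of them was the seed of the 5p arms.
miR-16-1-3p: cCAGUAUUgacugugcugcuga
miR-16-2-3p: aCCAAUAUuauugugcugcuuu
miR-195a-3p: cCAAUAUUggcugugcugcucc
miR-15b-3p: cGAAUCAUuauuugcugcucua
miR-15a-3p: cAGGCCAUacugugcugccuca

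The hairpins sit in 3 places of build GRCm38. On the minus strand of chromosome 14, mir-15a (chr14:61632027-61632110) lies in an intron of the noncoding gene Dleu2, and mir-16-1 (chr14:61631880-61631972) overlaps an exon of at least 1 Dleu2 transcript, with 54 bases between the hairpins. On the plus strand of chromosome 3, mir-15b (chr3:69009772-69009835) and mir-16-2 (chr3:69009902-69009996) lie 66 bases apart in an intron of Smc4, a condensin subunit gene. On the plus strand of chromosome 11, mir-195a (chr11:70235042-70235135) has no annotated host gene in GENCODE M21 and lies 241 bases from mir-497a (chr11:70234717-70234800).

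Library depth, with 1 row per mature miRNA, ran from 5350259 counts in TgR PFC replicate 2 to 11111883 in TgR hippocampus replicate 1. Family members took 0.103% to 0.187% of a library. A count of 3, used as the floor, corresponded to 0.27 to 0.561 CPM (counts scaled to library totals) by library. Levels below are CPM after scaling by the trimmed mean of M values (TMM) over the 13 libraries. The neuronal marker list (10 miRNAs, led by miR-128-3p) summed to between 273410 and 421820 CPM, and 1 of its miRNAs was at 0 in some library. This list marks brain tissue.

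Within its group, TgR PFC replicate 2 stood farthest from the other libraries. Over 647 miRNAs its root mean square deviation from the mean of the other TgR PFC libraries was 0.542 on the log2 scale, against 0.246 to 0.444 for the other TgR PFC libraries and 0.293 to 0.536 in the other groups. FVB/N PFC replicates 1 and 3 came close, at 0.507 and 0.536. TgR PFC replicate 2 was also the shallowest library, and its red blood cell list (7 miRNAs, led by miR-451a) summed to 4194 CPM against 2239 to 2600.1 CPM in the other TgR PFC libraries. For the main results that rest on it, values without it are given as well.

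Among the 5p arms, miR-16-5p was by far the most abundant and ranked 87 of 1384 miRNAs by mean CPM. FVB/N hippocampus held 819, 1067 and 764 CPM, and TgR hippocampus held 1149, 1217 and 1065 CPM. FVB/N PFC held 1024, 939 and 855 CPM, and TgR PFC held 856, 1279, 950.4 and 787 CPM. The 3 TgR hippocampus libraries lay high, but the ranges overlapped at 1 pair, 1065 in TgR and 1067 in FVB/N.

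miR-195a-5p followed at rank 159. It held 253, 379 and 266 CPM in FVB/N hippocampus and 358, 332 and 256 CPM in TgR hippocampus. It held 246, 231 and 197 CPM in FVB/N PFC and 203, 365, 249 and 187 CPM in TgR PFC. Every FVB/N hippocampus library was above every FVB/N PFC library, and the genotypes overlapped in both regions.

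miR-15b-5p and miR-15a-5p were much less abundant and ranked 292 and 334. miR-15b-5p averaged 33.2 ± 3.34 CPM (SD, n = 3) in FVB/N hippocampus, 32.6 ± 5.65 CPM (n = 3) in TgR hippocampus, 36.7 ± 13.6 CPM (n = 3) in FVB/N PFC and 35 ± 13.8 CPM (n = 4) in TgR PFC. Its 13 libraries ran from 21.8 CPM in FVB/N PFC replicate 3 to 55.6 CPM in TgR PFC replicate 2, and its groups overlapped throughout.

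miR-15a-5p held 13.6, 21.7 and 13.6 CPM in FVB/N hippocampus and 22.9, 34.4 and 22.1 CPM in TgR hippocampus. In FVB/N PFC it held 18.4, 27.9 and 12.4 CPM. In TgR PFC it held 13.6, 45.2, 17.9 and 12.3 CPM. All TgR hippocampus libraries were above all FVB/N hippocampus libraries, while the PFC groups overlapped widely, and the highest of all 13 values was that of TgR PFC replicate 2.

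Among the 3p arms, miR-195a-3p and miR-16-1-3p were the most abundant, at ranks 284 and 310. miR-195a-3p held 48.8, 49.9 and 58 CPM in FVB/N hippocampus and 41.8, 33.1 and 39.9 CPM in TgR hippocampus. In PFC it held 27, 35.6 and 30.1 CPM in FVB/N mice and 34.8, 43.8, 38.1 and 31.3 CPM in TgR mice. The FVB/N hippocampus libraries were thus above all 10 others, and the TgR hippocampus libraries lay within the range of the TgR PFC libraries.

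miR-16-1-3p held 36.7, 36 and 28.1 CPM in FVB/N hippocampus and 32.8, 31.5 and 40.3 CPM in TgR hippocampus. In PFC it held 27.2, 22.8 and 17.6 CPM in FVB/N mice and 23.5, 22.5, 22.9 and 25.2 CPM in TgR mice. All 6 hippocampus libraries were above all 7 PFC libraries, and the genotypes overlapped within each region.

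The remaining 3p arms were rare. miR-15b-3p held 5.37 to 11.6 CPM across the 13 libraries (rank 414). miR-15a-3p held 0.505 to 1.75 CPM, from 4 to 17 counts (rank 614), and miR-16-2-3p held 0.448 to 1.64 CPM, also from 4 to 17 counts (rank 619). At those counts small differences between groups were not detectable. In the order of mean levels, miR-195a-3p, miR-15b-5p, miR-16-1-3p and miR-15a-5p had overlapping ranges over the libraries, as had miR-15a-3p and miR-16-2-3p. These are reads per mature miRNA of nearly equal length, and reads of different sequences need not be proportional to molecules.

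**Figure D1:**
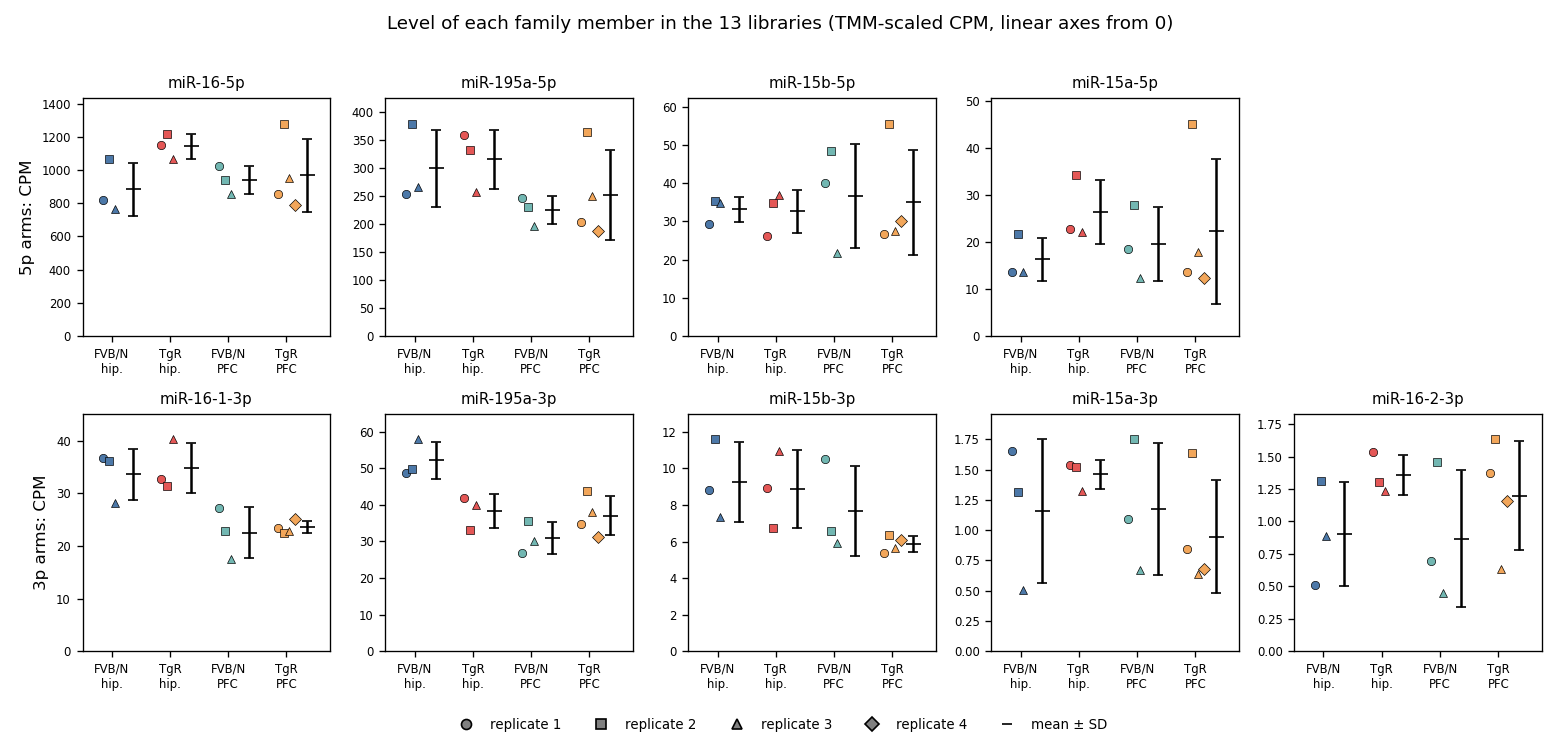
CPM (TMM-scaled, linear axes from 0) of the 9 family members, 5p arms above and 3p arms below, in the 4 groups. Points are single animals with a symbol for each replicate, and the bar beside them is the mean ± SD. miR-16-1-3p is higher in all 6 hippocampus than in all 7 PFC libraries, and the square of TgR PFC stands above the other animals of its group for each of the 5p arms.

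In hippocampus, comparing TgR with FVB/N mice, no family member passed the test. With edgeR's quasi-likelihood fit, and p-values adjusted by Benjamini-Hochberg over all 619 tested miRNAs, 0 of 9 members had an adjusted p under 0.05, where 4.85% of all tested miRNAs were called. DESeq2 called 0 members as well. At an unadjusted p under 0.05 there were 3 members of 9 (17.4% of all tested), and 2 of 9 had groups that did not overlap (23.6% of all tested). The members' median log2 fold change was 0.06, between -0.47 and 0.68, beside -0.00143 over all tested miRNAs.

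The 3 members with an unadjusted p under 0.05 were miR-15a-5p, miR-16-5p and miR-195a-3p. miR-15a-5p had a log2 fold change of 0.68 (SE 0.26, 95% interval 0.10 to 1.26, edgeR adjusted p = 0.185). miR-16-5p had 0.36 (SE 0.15, 95% interval 0.02 to 0.69, edgeR adjusted p = 0.24). The lower ends of both intervals were thus close to 0, and neither value held after adjustment over all tested miRNAs.

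miR-195a-3p had a log2 fold change of -0.47 in the same comparison (SE 0.18, 95% interval -0.87 to -0.07, edgeR adjusted p = 0.184). Its 5p partner had 0.06 (95% interval -0.38 to 0.49). The other members from frequent reads, miR-15b-5p at -0.04 (95% interval -0.49 to 0.40) and miR-16-1-3p at 0.04 (95% interval -0.38 to 0.45), had estimates near 0 with intervals that still allow a change in either direction. The rare arms miR-15a-3p, miR-15b-3p and miR-16-2-3p had 0.30, -0.08 and 0.53, with edgeR adjusted p of 0.72, 0.897 and 0.475.

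Some of the marker lists moved in this comparison, and their part in the values above was not tested. Rises and falls are calls at an adjusted p under 0.05, made for 4.85% of the 619 tested miRNAs. Red blood cell miRNAs summed to 2232 to 2347 CPM in FVB/N and 999 to 1398 CPM in TgR hippocampus, and 4 of 7 fell. miRNAs of choroid plexus and ciliated cells (9, led by miR-204-5p) summed to 1621 to 2251 CPM in FVB/N and 2650 to 9742 CPM in TgR hippocampus, and 6 of 9 rose. No marker of either list was at 0 in any library. Of the oligodendrocyte miRNAs 1 of 5 rose by this threshold, with a list median log2 fold change of 0.41. None of the tested miRNAs of the white blood cell, endothelium and neuronal lists was called. In whole tissue, fewer cells of a type and less RNA per cell cannot be told apart.

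In PFC, comparing TgR with FVB/N mice, 0 of 9 members passed the test, where 0.159% of the 628 tested miRNAs did. No member had an unadjusted p under 0.05 (3.18% of all tested), and none had groups that did not overlap (4.78% of all tested). The edgeR adjusted p was 0.999 for each of the 9. The members' median log2 fold change was 0.06, between -0.41 for miR-15b-3p and 0.48 for miR-16-2-3p, beside 0.00283 over all tested.

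The width of the interval in PFC differed between members. miR-16-5p had a log2 fold change of 0.04 (95% interval -0.38 to 0.45), miR-195a-3p 0.25 (-0.15 to 0.66) and miR-16-1-3p 0.06 (-0.37 to 0.48). It was 0.15 (-0.39 to 0.70) for miR-195a-5p and -0.08 (-0.87 to 0.72) for miR-15b-5p. For miR-15a-5p the value was 0.17, with an interval from -0.95 to 1.29. That value turned to -0.43 without TgR PFC replicate 2 (edgeR adjusted p = 0.916) and to -0.07 without FVB/N PFC replicate 3 (edgeR adjusted p = 0.98).

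The genotype effect was then compared between the regions, as the effect in hippocampus minus that in PFC. Of 9 members, 0 passed the test (0.464% of 647 tested miRNAs were called), and 1 had an unadjusted p under 0.05 (8.5% of all tested). That member was miR-195a-3p, with a difference of -0.71 on the log2 scale (SE 0.25, 95% interval -1.23 to -0.18, edgeR adjusted p = 0.312). Its mean was lower in TgR than in FVB/N hippocampus (38.3 against 52.2 CPM) and higher in TgR than in FVB/N PFC (37 against 30.9 CPM). miR-15a-5p had a difference of 0.52 with an interval from -0.79 to 1.83, and miR-16-5p one of 0.33 with an interval from -0.20 to 0.86.

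Between the regions, 1 member passed the test in TgR mice and 0 in FVB/N mice. In TgR mice, miR-16-1-3p was higher in hippocampus than in PFC by 0.54 on the log2 scale (SE 0.14, 95% interval 0.22 to 0.87, edgeR adjusted p = 0.0363). That was 1 of 9 members, where 13.6% of the 633 tested miRNAs were called and 6.64% were called higher. The share of members was therefore near the background. Non-overlapping groups were seen for 2 of 9 members, miR-16-1-3p and miR-15b-3p, against 26.7% of all tested.

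The call for miR-16-1-3p was close to the threshold. Leaving out any of TgR hippocampus replicates 1 and 3 and TgR PFC replicates 1, 3 and 4 raised its edgeR adjusted p to between 0.05557 and 0.117, with log2 fold changes from 0.40 to 0.62. In FVB/N mice the same arm had a similar value, 0.57 (SE 0.25, edgeR adjusted p = 0.281), and in the fit of all libraries the regional difference of TgR mice differed from that of FVB/N mice by -0.01, with a 95% interval from -0.57 to 0.55.

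The number of members that passed between the regions in TgR mice changed with whichever of the 7 libraries was left out. It was 0 without the 5 libraries named above and 2 without TgR hippocampus replicate 2 (miR-16-1-3p and miR-15b-3p). Without TgR PFC replicate 2, which held the highest 5p arms of its group, 5 of 9 members passed edgeR's test, where 19.9% of 628 tested miRNAs were called. These were miR-15a-3p (0.98, edgeR adjusted p = 0.0467), miR-15a-5p (0.83, adjusted p = 0.0404), miR-16-1-3p (0.52, adjusted p = 0.0482), miR-16-5p (0.38, adjusted p = 0.0309) and miR-195a-5p (0.53, adjusted p = 0.0445), all higher in hippocampus. With all 7 libraries the log2 fold changes of these members were 0.69, 0.27, 0.54, 0.23 and 0.32 in the same order.

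In FVB/N mice, 0 of 8 tested members passed between the regions, where 3.58% of 615 tested miRNAs were called, and miR-16-2-3p was too rare to be tested. Non-overlapping groups were seen for 3 of 8 members (21.6% of all tested), and 2 of 8 had an unadjusted p under 0.05 (16.6% of all tested). The largest value was that of miR-195a-3p, higher in hippocampus by 0.75 (SE 0.22, 95% interval 0.26 to 1.24, edgeR adjusted p = 0.103). With all 13 libraries in one fit, which share 1 estimate of the spread, it passed at 0.76 (edgeR adjusted p = 0.0218), where 7.57% of tested miRNAs were called. In TgR mice the value for this arm was 0.03 (95% interval -0.30 to 0.37). The values of miR-195a-3p between genotypes in hippocampus, between regions in FVB/N mice and for the difference between regions all share the 3 FVB/N hippocampus libraries, so they are not separate evidence.

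The marker lists were also compared between the regions, with calls at an adjusted p under 0.05. Over all tested miRNAs 13.6% were called in TgR mice and 3.58% in FVB/N mice. The neuronal list summed to 273410 to 326060 CPM over the hippocampus libraries and to 333510 to 421820 CPM over the PFC libraries. That sum is weighted by miR-128-3p, with a mean of 216360 CPM. Of its 9 tested miRNAs, 1 was lower in hippocampus in TgR mice and 0 were called in FVB/N mice. The median log2 fold change of the neuronal list was -0.02 in TgR and -0.13 in FVB/N mice. The white blood cell list (6 miRNAs, led by miR-150-5p) summed to 623 to 738 CPM in hippocampus and 776 to 1085 CPM in PFC. Of its 6 miRNAs, 1 was lower in hippocampus in TgR mice and 0 were called in FVB/N mice. For both lists the share called in TgR mice was near that of all tested miRNAs. The oligodendrocyte list (5 miRNAs, led by miR-219a-2-3p) summed to 2260 to 4868 CPM over the hippocampus libraries and to 1015 to 1438 CPM over the PFC libraries. Of its 5 miRNAs, 2 were higher in hippocampus in FVB/N mice and 4 in TgR mice. In TgR mice 7 of 9 choroid plexus and ciliated cell miRNAs were higher in hippocampus and 3 of 7 red blood cell miRNAs were lower. In FVB/N mice these counts were 1 of 9 and 0 of 7. Of the 2 endothelium miRNAs, 1 was lower in hippocampus in TgR mice and 0 were called in FVB/N mice. Apart from 1 neuronal miRNA no marker of these lists was at 0 in any library, and their part in the family's values was not tested.

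**Figure D2:**
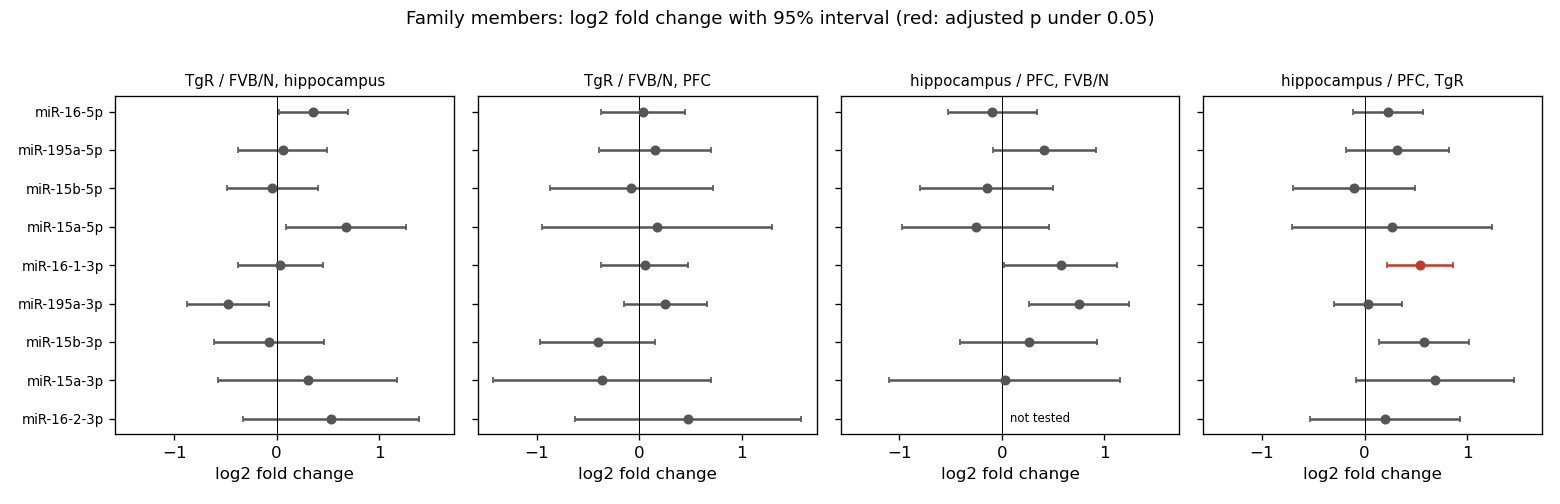
Log2 fold change (horizontal axis) of each of the 9 members in 4 comparisons, with its 95% interval from edgeR's quasi-likelihood fit. Red marks an adjusted p under 0.05, reached by miR-16-1-3p alone, at 0.54 between hippocampus and PFC of TgR mice, and miR-16-2-3p was not tested between regions in FVB/N mice.

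The arms of a hairpin are made together, and one is usually kept, so the reads of the 5p arm per read of the 3p arm were followed by library. The 5p arm was the more frequent in all 5 hairpins and all 13 libraries. The median ratio was 4.73 for mir-15b, 6.53 for mir-195a, 16.2 for mir-15a, 36.4 for mir-16-1 and 806 for mir-16-2. For mir-16-1 and mir-16-2 the 5p reads are the same shared miR-16-5p, so these ratios compare the shared arm with each hairpin's own 3p arm.

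For mir-16-1 the ratio was 22.3, 29.6 and 27.2 in FVB/N hippocampus and 35, 38.6 and 26.4 in TgR hippocampus. It was 37.6, 41.1 and 48.5 in FVB/N PFC and 36.4, 56.6, 41.4 and 31.2 in TgR PFC. Hippocampus was lower than PFC by 0.49 on the log2 scale as a mean over genotypes (0.69 in FVB/N and 0.29 in TgR mice), with p = 0.0186 in a two-sided exact permutation test within genotypes and an adjusted p of 0.186 over 10 ratio tests. The FVB/N groups did not overlap and the TgR groups did.

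For mir-195a the ratio was 5.18, 7.59 and 4.59 in FVB/N hippocampus and 8.56, 10 and 6.42 in TgR hippocampus. It was 9.1, 6.46 and 6.53 in FVB/N PFC and 5.84, 8.31, 6.53 and 5.99 in TgR PFC. The mean TgR minus FVB/N difference on the log2 scale was 0.54 in hippocampus and -0.14 in PFC, and the exact permutation test over both gave p = 0.339 and an adjusted p of 0.652. Animals of both genotypes overlapped in both regions.

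For mir-15b the ratio ran from 2.92 to 8.63, and hippocampus was lower by 0.49 on the log2 scale (exact permutation p = 0.0629, adjusted p = 0.314). None of the 10 tests, by region or genotype for 5 hairpins, passed after adjustment. The smallest p that the 700 assignments allow is 0.00143.

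**Figure D3:**
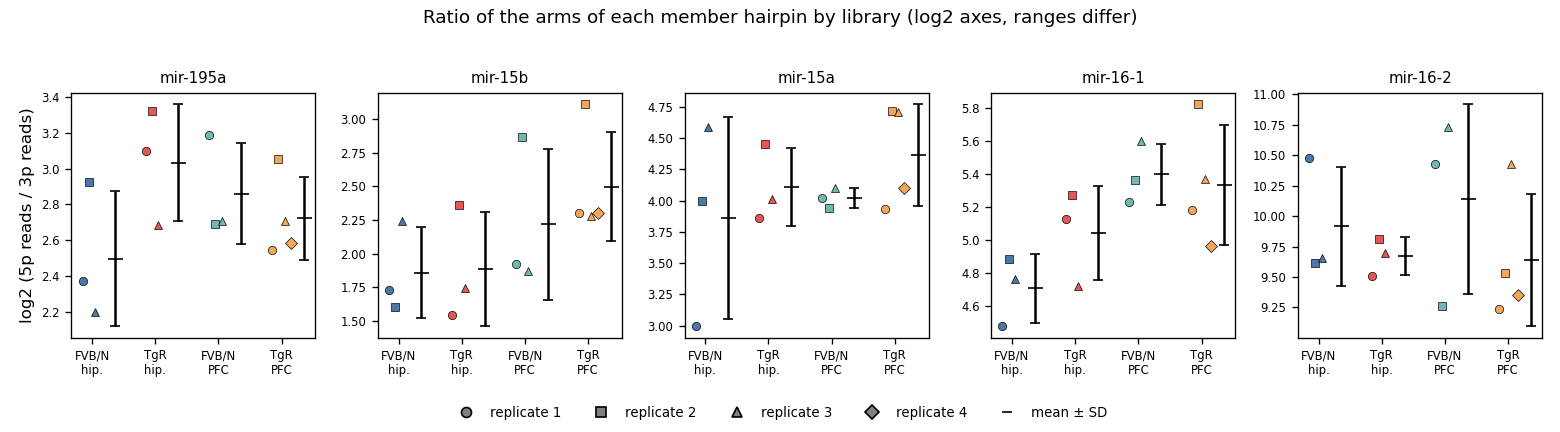
Log2 of 5p reads per 3p read for the 5 member hairpins in the 4 groups, with 1 point per animal, a symbol for each replicate and the mean ± SD beside them; axis ranges differ. The ratio of mir-16-1 lies lower in FVB/N hippocampus (22.3 to 29.6 before the log) than in FVB/N PFC (37.6 to 48.5), and TgR PFC replicate 2 has the highest ratio of mir-15b, 8.63.

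The closest relatives of the family were counted as well, since some carry its seed and some share a cluster with a seed carrier. Of 11 such mature miRNAs 8 were listed in the files and 5 were tested, namely both arms of mir-322 and mir-503, which lie 200 bases apart on chromosome X, and miR-497a-5p, the neighbour of miR-195a. Their 5p arms are shown with bases 2 to 8 in capitals.
miR-497a-5p: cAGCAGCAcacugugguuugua
miR-322-5p: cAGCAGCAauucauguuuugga
miR-503-5p: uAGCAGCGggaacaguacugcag
miR-503-5p differs from the family within the seed and was not counted among its carriers.

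No relative passed edgeR's test in any of the 5 comparisons. miR-322-5p held 13.4, 21 and 12.9 CPM in FVB/N hippocampus and 22.7, 32.4 and 20.1 CPM in TgR hippocampus. Its log2 fold change there was 0.65 (SE 0.26, edgeR adjusted p = 0.216), next to 0.68 for miR-15a-5p, and its groups overlapped. It was the 1 relative of 5 with an unadjusted p under 0.05 there (17.4% of all tested). The groups of 1 relative of 5, miR-503-5p, did not overlap there (23.6% of all tested), at a log2 fold change of 0.14. miR-497a-5p had 0.32 in the same comparison (SE 0.24, edgeR adjusted p = 0.488). Between the regions in TgR mice miR-497a-5p had 0.55 (edgeR adjusted p = 0.222), and without TgR PFC replicate 2 it passed at 0.82 (adjusted p = 0.0187). miR-195b had 0 or 1 count in a library, miR-497a-3p 0 to 6 and miR-497b 1 to 11, and none of these was tested.

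Seen from the seed, miR-16-5p supplied most reads. The listed seed carriers summed to 1434 ± 274 CPM (SD, n = 13), from 1099 CPM in TgR PFC replicate 4 to 1927 CPM in TgR PFC replicate 2. Of these reads miR-16-5p took 68.8% ± 3.03, miR-195a-5p 18.8% ± 2.17, miR-497a-5p 7.04% ± 1.23, miR-15b-5p 2.42% ± 0.551, miR-322-5p 1.5% ± 0.297 and miR-15a-5p 1.43% ± 0.406. The miR-195a-5p share was 22% ± 1.17 (n = 3) in FVB/N hippocampus, 18.7% ± 1.86 (n = 3) in TgR hippocampus, 17% ± 0.16 (n = 3) in FVB/N PFC and 17.8% ± 0.926 (n = 4) in TgR PFC. The sums were 1356 ± 275, 1679 ± 155, 1320 ± 143 and 1394 ± 372 CPM in the same order. The ranges overlapped except between TgR hippocampus (1506 to 1803 CPM) and FVB/N PFC (1159 to 1432 CPM).

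**Figure D4:**
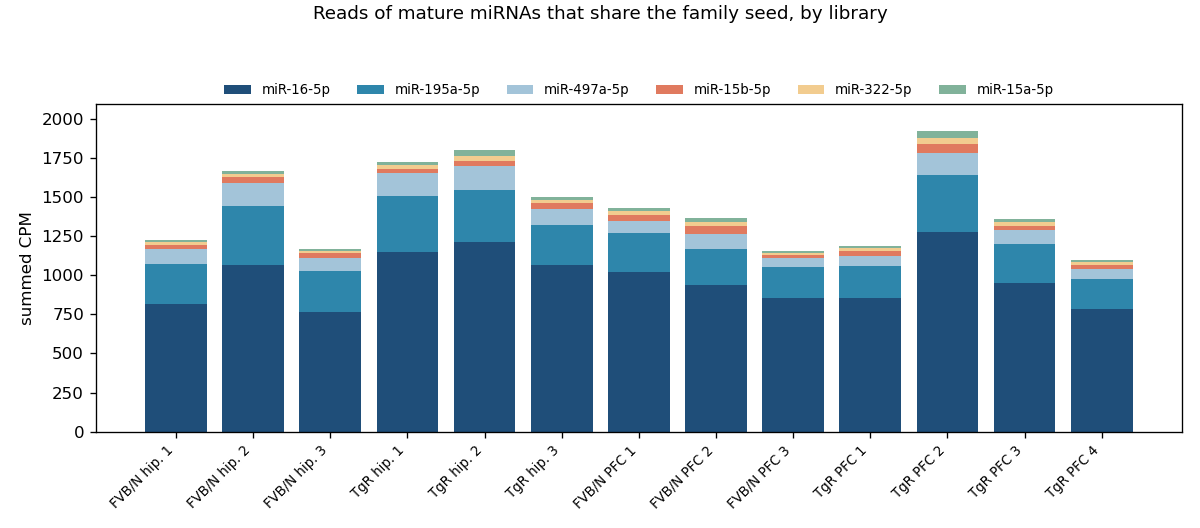
Summed CPM (vertical axis, from 0) of the mature miRNAs that carry the family seed, stacked by miRNA, in each of the 13 libraries. miR-16-5p makes up 63.8% to 73.8% of every bar, and the tallest bar is that of TgR PFC replicate 2, at 1927 CPM.

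Within the family, arms that shared a cluster did not always vary together, as a description over the 13 libraries, which share depth and scaling. The cluster partners miR-195a-5p and miR-497a-5p had the highest Pearson r of log2(CPM + 1) among members and relatives, 0.942. After the group means were removed it was 0.935, below miR-16-5p and miR-195a-5p (0.951) and miR-15a-5p and miR-322-5p (0.948). miR-15a-5p and miR-322-5p, from different chromosomes, had 0.907, and miR-15a-5p and miR-16-5p had 0.893. The arms of mir-15b had 0.203, and miR-16-1-3p and miR-16-5p had 0.24. Without TgR PFC replicate 2, r was 0.399 for the arms of mir-15b and 0.432 for miR-16-1-3p and miR-16-5p. It was then 0.935 for miR-195a-5p and miR-497a-5p, 0.85 for miR-15a-5p and miR-322-5p, and 0.86 for miR-15a-5p and miR-16-5p.

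Outside the family and its relatives, miR-106b-5p, a member of the miR-17 family, was most like miR-15a-5p, with r = 0.958 over 13 libraries, 0.992 with group means removed and 0.932 without TgR PFC replicate 2. miR-33-5p, which lies in the sterol regulator gene Srebf2, followed with 0.947. For miR-16-5p the nearest were miR-33-3p, miR-106b-5p (both 0.883) and miR-19b-3p (0.881). For miR-195a-5p they were miR-7a-1-3p (0.924), miR-551b-3p (0.866) and miR-3068-5p (0.84). For miR-15b-5p they were miR-669a-3p and miR-669o-3p, which had the same counts and are 1 measurement (0.883), and let-7g-3p (0.876). Without TgR PFC replicate 2, miR-15b-5p had r = 0.836 with miR-669a-3p and 0.8 with let-7g-3p. In that setting miR-16-5p had 0.852, 0.855 and 0.839, and miR-195a-5p 0.909, 0.837 and 0.812, in the order given.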

How the data were processed

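The authors made small RNA libraries (NEBNext) from total RNA (miRNeasy) of hippocampus and of PFC. They checked reads with FastQC and counted them against miRBase hairpins with miRExpress. The deposited counts are raw reads per pair of hairpin and mature miRNA, and DESeq2 was the authors' own test. Here, pairs of one mature miRNA that share reads were reduced to the pair with the highest total. Counts were tested with edgeR 4.0.16 (R 4.3.3): filterByExpr with a minimum count of 10, TMM scaling, quasi-likelihood F-test, Benjamini-Hochberg adjustment over all tested miRNAs, threshold 0.05, with only the libraries of each comparison in the fit (all 13 for the difference between regions). Intervals are the log2 fold change with its SE and edgeR's moderated degrees of freedom, so they include the spread between animals. Arm ratios, with 0.5 added to each count, were tested by exact permutation within strata. The scripts were tested on simulated data. Groups and replicate numbers came from the sample titles, which name single animals for PFC and give only a number for hippocampus. Alternatives were DESeq2 1.42.0, its size factors, library size alone, no filter, pairs as deposited, one fit of all libraries, a replicate block and leaving out each library. Named miRNAs are all members, seed or cluster relatives, the marker lists and the 3 miRNAs most like each 5p arm. Members and lists were chosen with earlier results of these data known. Floors cover counting error only, since reads carry no molecular identifiers.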

Additional observations from a re-analysis of the deposited data

Results flagged for a closer look

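Dixon's test at the 95% level was run only on the 4 TgR PFC libraries, since groups of 3 were not tested, and the 3 values past it came from TgR PFC replicate 2. In that library miR-15a-5p was at 45.23 CPM, where the other TgR PFC animals held 12.3 to 17.9 CPM. In the same library miR-15b-5p was at 55.59 CPM against 26.8 to 30.2 CPM in the others. Its ratio of 5p to 3p reads of mir-15b was 8.634, against 4.85 to 4.94 in the others. They were found among 19 values tested, and chance flags about 1 in 20 groups. The tested values come from the same 4 libraries and are not independent. The level of miR-15b-5p and the ratio of mir-15b also share their 5p reads. The library was the shallowest of all and its red blood cell list was the highest of its group, at 4194 CPM. The part of depth and red blood cells in the flagged values was not tested.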

How the results depend on the processing

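The count of family members past the threshold was 0 for TgR against FVB/N in hippocampus, in PFC and for the difference between regions under every alternative run. Between regions in TgR mice it was 1, fell to 0 without a filter, with pairs as deposited and with all 13 libraries in one fit, and ranged from 0 to 5 when 1 library was left out. There miR-16-1-3p had log2 fold changes of 0.55, 0.53 and 0.57 under those alternatives (edgeR adjusted p = 0.0939, 0.0516 and 0.057), and passed in 6 of 14 alternatives. In FVB/N mice the count was 0, and 1 with all 13 libraries in one fit. The count over all tested miRNAs in hippocampus, 30, became 64 without a filter, 50 with DESeq2, and 2 to 18 when 1 library was left out (2 without FVB/N hippocampus replicate 3). Between regions in FVB/N mice 22 became 52 without a filter, 34 with DESeq2, 49 in one fit, and 8 to 51 leaving 1 library out (8 without FVB/N PFC replicate 2). Between regions in TgR mice 86 became 43 to 125 leaving 1 out. For the difference between regions 3 became 16 without a filter, 14 with DESeq2, and 2 to 8 leaving 1 out. The cause of these shifts was not tested.

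Of 44 member values over the 5 comparisons, 22 took another sign in some alternative, none of them past the threshold. Only part of these 22 are named below. A value not named, also between regions in FVB/N mice, is not thereby stable in sign. With library size alone, the hippocampus values of miR-15b-3p and miR-15b-5p became 0.016 and 0.063, and the difference between regions of miR-16-1-3p became 0.12 (0.057 without a filter). Leaving out 1 library gave, in hippocampus, -0.0097 to 0.60 for miR-15a-3p, -0.26 to 0.12 for miR-15b-3p, -0.14 to 0.098 for miR-15b-5p, -0.078 to 0.093 for miR-16-1-3p and -0.057 to 0.25 for miR-195a-5p. In PFC it gave -0.43 to 0.50 for miR-15a-5p, -0.40 to 0.16 for miR-15b-5p, -0.088 to 0.23 for miR-16-1-3p, -0.13 to 0.12 for miR-16-5p and -0.088 to 0.27 for miR-195a-5p. Between regions in TgR mice it gave -0.017 to 0.83 for miR-15a-5p and -0.05 to 0.12 for miR-195a-3p, and the difference between regions of miR-16-1-3p ran from -0.18 to 0.12. The regional arm ratio ran from -0.39 to 0.011 for mir-15a, -0.31 to 0.054 for mir-16-2 and -0.13 to 0.062 for mir-195a.

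Replicate numbers were not taken as pairs, since nothing states a shared animal or batch and same-numbered samples did not deviate together throughout (r from -0.214 to 0.459 over the pairs of the 4 comparisons). The numbers are those of the titles, and the deposited FVB/N PFC files number the animals differently, so these r and the blocked values depend on that choice. With a replicate block the count over all tested miRNAs became 17 in hippocampus and 5 for the difference between regions, miR-195a-3p between regions in TgR mice became -0.034 and the difference between regions of miR-16-1-3p became 0.025. The block changed no call of a family member. TgR PFC replicate 4 has no partner of its number between the genotypes in PFC or between the regions in TgR mice and does not inform those blocked values. Depth limits miR-15a-3p and miR-16-2-3p most, with 4 to 17 counts per library.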

Other observations

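Among the 9 members and 5 tested relatives, miR-15a-5p, miR-322-5p and miR-497a-5p had their highest level in replicate 2 in all 4 groups. The others had replicate 2 highest in 0 groups (miR-16-1-3p and miR-503-3p) to 3 groups. Over 647 miRNAs, 33 (5.1%) had replicate 2 highest in all 4 groups, and 172 (26.6%) in none. The numbers are those of the sample titles, where they only tell samples of a group apart. The deposited FVB/N PFC files number the animals differently, so the pattern depends on the numbering used for that group.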
